A study of Homo sapiens with 34 samples.

Results

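RBPJ is the DNA-binding protein of the Notch pathway. Without a signal it recruits corepressors, and after cleavage of a NOTCH receptor the intracellular domain (N1-ICD for NOTCH1) enters the nucleus, binds RBPJ together with a Mastermind coactivator and turns target genes such as HES1, HEYL and NRARP on. In NOTCH-driven breast cancer cells these targets include MYC and CCND1, which drive growth. Loss of N1-ICD is known to lower the occupancy of RBPJ at many of its sites, so RBPJ peaks can report where Notch signaling acts. The recovered sites described here are places where RBPJ was called in the parental line, not called in its drug-resistant derivative, and called again in that derivative when a NOTCH1 construct was induced.

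The binding of RBPJ was mapped by ChIP-seq (chromatin immunoprecipitation followed by sequencing) in MB157, a triple-negative breast cancer line with an intragenic deletion in NOTCH1 that gives a dominant-active receptor, and in MB157R. MB157R was derived from MB157 by 25 weeks in 1 µM of the γ-secretase inhibitor (GSI) LY3039478, which blocks release of the intracellular domain. All cells carried a lentiviral doxycycline-inducible vector and received 1 µg/ml doxycycline for 72 h. The vector was empty in MB157 iEV and MB157R iEV, encoded HA-tagged SOX2, a stem cell transcription factor, in MB157 iSOX2, and encoded DeltaE-NOTCH1, which lacks the extracellular domain, in MB157R iN1-ICD. Whether the MB157R cells were still in GSI during induction is not given in the sources used here. Each RBPJ group held 3 libraries, but the authors called peaks on the pooled libraries of a group. With 1 list of peaks for each condition, replicate spread was unknown for all values here, and the intervals below cover counting error only.

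A recovered site was chosen by the peak lists themselves. It is an RBPJ summit of MB157 iEV with an RBPJ summit of MB157R iN1-ICD less than 500 bp away and no RBPJ summit of MB157R iEV less than 500 bp away. On chromosomes 1 to 22 and X, 1905 of 25243 MB157 iEV summits met this rule (7.55%). The other sites were constant (9254, with a summit in both MB157R lists), lost and not recovered (11074, in neither) or near a summit of MB157R iEV only (3010). No filter on low values was applied, so no site was left out of the main counts for weakness. Counts by gene leave out the 300 recovered sites over 50 kb from a protein-coding TSS. The calls and folds in these 3 lists made the classes, so they are described without a test. The 4 RBPJ lists differed in length, and the longest was that of MB157R iEV with 46601 summits, followed by MB157R iN1-ICD (37297), MB157 iSOX2 (34521) and MB157 iEV (25243). Where the peak caller expected the least signal, its background was between 1.60 fragments (MB157 iEV) and 2.04 (MB157 iSOX2), with 1.82 for MB157R iEV and 1.75 for MB157R iN1-ICD, and the weakest peaks of every list held 8 fragments. A site without a call is one that did not pass at this depth, not one shown to be free of RBPJ.

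The label "recovered" rests on summits, and the peak regions did not always match it. At 999 recovered sites (52.4%), an MB157R iEV peak region overlapped the MB157 iEV peak, with only its summit 500 bp or more away. These are called overlapped below, and an RBPJ peak region was still called across them in MB157R iEV. The remaining 906 sites were touched by no MB157R iEV RBPJ peak and are called clear. Being clear is a missing call and does not show that RBPJ was absent. An MB157R iN1-ICD RBPJ peak region overlapped 94.4% of the clear sites. At the others only its summit was less than 500 bp away. Clear and overlapped sites are described side by side, since they differed in nearly every feature examined.

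The reference sequences at the strongest clear sites are printed to show which of them hold an RBPJ motif at the summit. Sites were ranked by the lower of their folds in MB157 iEV and MB157R iN1-ICD, so that a site ranked high only if it was strong in both. Of the top 10, at most 1 per nearest gene, 7 are shown with 50 bases to each side of the MB157 iEV summit. ID3, the highest recovered site of the canonical NOTCH targets, and HEYL, added after its values were seen, are shown for comparison. Capitals mark the RBPJ motif NGTGNGAA (C or T at the first N, A or G at the second) or its reverse complement, and at LURAP1L the 7-letter core GTGNGAA (A or G at N) alone. The bases are the hg38 reference, plus strand, 5′ to 3′.
LURAP1L intron 1, chr9:12817919-12818019: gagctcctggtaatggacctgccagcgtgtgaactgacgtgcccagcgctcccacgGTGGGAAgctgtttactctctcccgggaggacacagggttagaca
ALDH1A2 upstream, chr15:58330267-58330367: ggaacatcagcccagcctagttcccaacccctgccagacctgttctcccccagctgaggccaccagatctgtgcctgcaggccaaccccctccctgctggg
ARHGEF18 upstream, chr19:7333869-7333969: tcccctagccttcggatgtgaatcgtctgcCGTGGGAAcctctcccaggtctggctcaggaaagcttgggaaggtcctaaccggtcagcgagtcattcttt
ENSG00000288706 downstream, chrX:23811502-23811602: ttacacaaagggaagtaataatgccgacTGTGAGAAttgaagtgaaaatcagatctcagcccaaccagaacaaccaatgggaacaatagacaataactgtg
NRP1 upstream, chr10:33706316-33706416: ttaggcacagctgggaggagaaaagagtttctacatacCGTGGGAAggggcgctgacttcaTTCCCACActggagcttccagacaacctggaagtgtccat
FANCC intron 13, chr9:95108215-95108315: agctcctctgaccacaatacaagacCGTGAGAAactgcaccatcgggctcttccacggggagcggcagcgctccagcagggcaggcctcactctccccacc
ZMIZ1 intron 7, chr10:79265061-79265161: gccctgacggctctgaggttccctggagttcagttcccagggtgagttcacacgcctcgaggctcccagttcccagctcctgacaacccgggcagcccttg
ID3 upstream, chr1:23600546-23600646: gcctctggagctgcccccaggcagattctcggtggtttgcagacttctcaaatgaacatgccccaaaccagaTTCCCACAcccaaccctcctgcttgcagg
HEYL upstream, chr1:39646842-39646942: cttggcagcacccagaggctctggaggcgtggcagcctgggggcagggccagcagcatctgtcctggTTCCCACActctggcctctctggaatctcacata

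The site with the highest rank lay in intron 1 of LURAP1L, a gene of the study's NOTCH signature (chr9:12817625-12818288, 42.9 kb downstream of the transcription start site (TSS)). RBPJ enrichment over the local input background was 58.8-fold in MB157 iEV, 48.3-fold in MB157R iN1-ICD and 21.9-fold in MB157 iSOX2. The nearest RBPJ summit of MB157R iEV was 3.36 kb away and a constant site lay 3.36 kb away as well. The summits of MB157 iEV and MB157R iN1-ICD were 5 bp apart, and HA-SOX2 was called 65 bp away at only 3.01-fold. The sequence held the 7-letter core but not the 8-letter motif.

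ALDH1A2, which makes retinoic acid, had a site 51.0 kb upstream of its TSS (chr15:58329899-58331034) with 29.8-fold enrichment in MB157 iEV, 25.9-fold in MB157R iN1-ICD and 15.9-fold in MB157 iSOX2. The site near RASSF4, a Ras-association protein, lay in the 3′ UTR of TMEM72 (chr10:44935502-44935971) with folds of 20.4 in MB157 iEV, 18.9 in MB157R iN1-ICD and 11.9 in MB157 iSOX2. The site 15 kb upstream of ARHGEF18, a guanine nucleotide exchange factor (chr19:7333440-7334232), reached 16.8-fold, 18.1-fold and 11.5-fold in the same order, and its MB157 iEV and MB157R iN1-ICD summits were the same base.

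The next sites were weaker in 1 or both lists. A site 28.3 kb downstream of the TSS of ENSG00000288706 on chromosome X (chrX:23810969-23811901) had 16.1-fold enrichment in MB157 iEV and 12.7-fold in MB157R iN1-ICD, and an HA-SOX2 peak of 30.2-fold 54 bp away. Intron 13 of FANCC, a DNA repair gene of Fanconi anemia (chr9:95107450-95108504), had 26.9-fold and 12-fold. Intron 7 of ZMIZ1, a coactivator known to cooperate with NOTCH1 (chr10:79264730-79265519), had 38.4-fold and 11.8-fold, with PPIF as the nearest protein-coding TSS. None of these sites had a SOX2 summit of MB157R iEV within 500 bp, and the closest was 1.52 kb away, at ALDH1A2.

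The site near NRP1, a coreceptor for semaphorins and VEGF, stood apart by its sequence. It lay 370 kb upstream of the NRP1 TSS in a non-coding gene (chr10:33706184-33706594), with 13.2-fold enrichment in MB157 iEV, 12-fold in MB157R iN1-ICD and 5.27-fold in MB157 iSOX2. Its 2 motifs face each other with 15 bp between them. Such a head-to-head pair, 15 to 17 bp apart, is the known layout on which a pair of Notch complexes can dimerize. It was the only recovered site with such a pair, among 4 of all 25243 MB157 iEV sites, of which the other 3 were constant. The nearest RBPJ summit of MB157R iEV was 44.5 kb away.

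Across all recovered sites the median fold was 5.02 in MB157 iEV (quartiles 4.14 and 6.78) and 4.72 in MB157R iN1-ICD (3.99 and 5.83). Clear sites had medians of 5.32 and 4.46, and overlapped sites of 4.99 and 4.85. The constant sites were stronger, with medians of 5.59 and 5.81, and the lost sites weaker in MB157 iEV, with a median of 4.58. Most recovered sites were thus modest peaks, with a median of 16 fragments at the summit. Both folds reached 6 at 222 sites, 10 at 21 sites and 20 at 3. Among the 21 sites with both folds at 10 or more, 18 were clear.

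**Figure D1:**
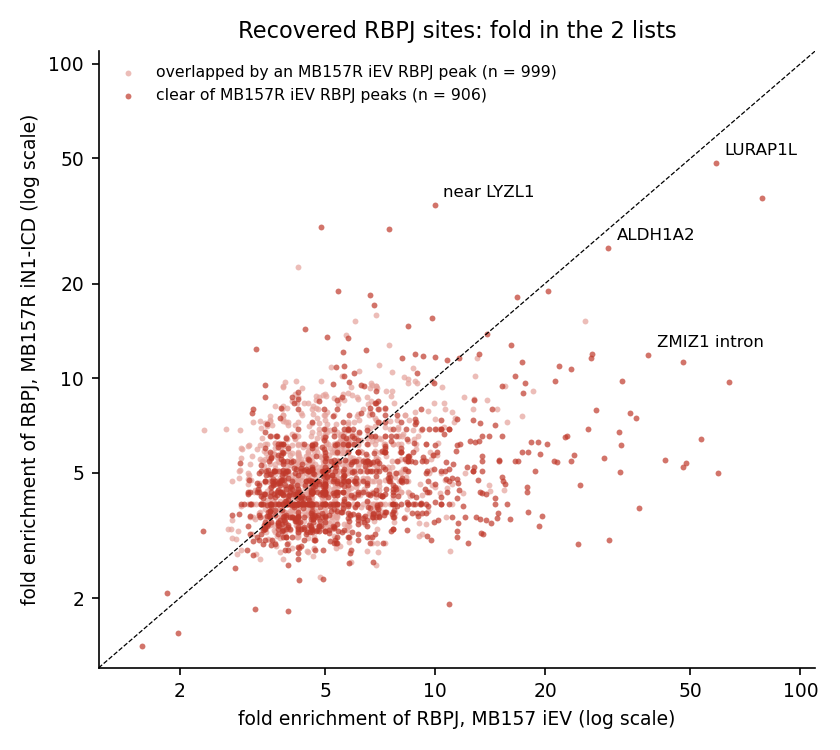
Fold enrichment of RBPJ at each of the 1905 recovered sites in MB157 iEV (x axis, log scale) and at the nearest peak of MB157R iN1-ICD (y axis, log scale), with clear sites in dark and overlapped sites in light red and equal folds on the dashed line. Most sites sit near 5-fold in both lists, LURAP1L and ALDH1A2 stand at 20-fold or more in both, and the strongest MB157 iEV sites lie below the line.

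Strength in one list said little about strength in the other. Across the 1905 sites, Spearman's correlation of the folds was 0.27 (0.315 over the clear and 0.478 over the constant sites), a description over sites that share 2 lists and their inputs. The MB157 iEV fold was the higher of the 2 at 60.1% of all recovered sites and at 68.4% of the clear ones. Some sites were recovered at a fraction of their parental fold, and some of them were picked as examples after their values were seen. A site near MYEOV had 59.5-fold enrichment in MB157 iEV and 4.99-fold in MB157R iN1-ICD. A site near SLITRK1 had 48.6-fold and 5.36-fold. The reverse also occurred. The intergenic site 125 kb upstream of LYZL1 had 9.98-fold in MB157 iEV and 35.6-fold in MB157R iN1-ICD (chr10:29163774-29164040), and a site near AXIN2, a feedback inhibitor of Wnt signaling, had 4.87-fold and 30.3-fold.

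The recovered share was higher among stronger parental sites, which is a description, since the lists that give the folds also made the classes. Of the 10960 MB157 iEV sites clear of MB157R iEV peaks, 906 were recovered (8.27%). The share was 5.67% (95% exact binomial interval 4.92 to 6.50) below 4-fold, 7.22% (6.50 to 7.98) from 4 to 6-fold, 11.2% (9.84 to 12.6) from 6 to 10-fold, 17.5% (14.5 to 20.8) from 10 to 20-fold and 29.8% (22 to 38.7) at 20-fold and over, where 37 of 124 sites were recovered. Even at 20-fold and over, most clear sites had no iN1-ICD summit nearby. For comparison, 75.5% of the MB157 iEV sites near an MB157R iEV summit also had one of iN1-ICD, and 49.5% of the 2019 overlapped ones did.

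**Figure D2:**
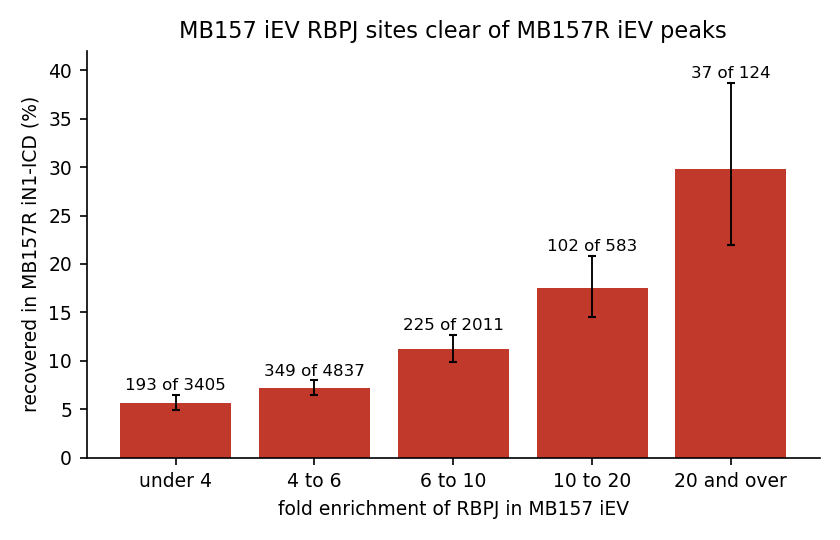
Share of MB157 iEV RBPJ sites clear of MB157R iEV peaks that had an MB157R iN1-ICD summit less than 500 bp away (y axis, percent), by RBPJ fold in MB157 iEV (x axis), with exact binomial 95% intervals as bars and the counts above them. The share rises at each step, from 5.67% to 29.8%.

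The same was seen from the side of MB157R iN1-ICD. Of its 7731 peaks clear of MB157R iEV, 905 (11.7%) lay near an MB157 iEV summit, so most of what was called anew after NOTCH1 induction was not at a parental site. The share was 10.7% of 6816 peaks below 6-fold, 17.8% of 769 from 6 to 10-fold, 24.8% of 137 from 10 to 20-fold and 6 of 9 at 20-fold and over. For comparison, 35.3% of the MB157R iN1-ICD summits less than 500 bp from an MB157R iEV summit lay near an MB157 iEV summit. Most of these shared summits thus had no parental summit nearby either, and the MB157 iEV list was the shortest. How many sites unrelated lists would share was not tested.

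Overlapped and clear sites lay in different parts of the genome. Of the overlapped sites, 67.9% (95% interval 64.9 to 70.8) were at promoters, within 1 kb of the TSS of a protein-coding gene, at a median of 0.573 kb from it. Of the clear sites, 13.5% (11.3 to 15.9) were, at a median of 16.6 kb. The background was 38.6% of all MB157 iEV sites. The difference from lost sites without an overlapping peak was within counting error (14.3%, difference -0.817 percentage points, 95% Newcombe interval -3.00 to 1.65), and both were less often at promoters than constant sites (56.0%). Taken over all recovered sites the share was 42%, which was 23.4 points above the lost sites (21.1 to 25.8), and the overlapped sites accounted for 678 of these 800 promoter sites. Clear sites were mostly intergenic (41.5%) or in introns of protein-coding genes (37.5%), and 247 of the 906 lay more than 50 kb from any protein-coding TSS.

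The strongest clear promoter sites were few. SEPTIN2, a cytoskeletal GTPase (chr2:241337671-241338257, 0.382 kb from a TSS), had 16.5-fold enrichment in MB157 iEV and 10.2-fold in MB157R iN1-ICD. LMTK3, a membrane kinase (chr19:48502290-48502583), had 8.83-fold and 12-fold. GCNT2, a glycosyltransferase (chr6:10520955-10521685), had 31.9-fold and 6.76-fold, with its summit 0.084 kb from the TSS. CACNA1E, a calcium channel subunit, had 15.2-fold and 6.54-fold, and ATP2A3, a calcium pump, 8.72-fold and 5.81-fold. The nearest MB157R iEV summit was at least 6.82 kb from each of these 5 sites.

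The distance to the nearest MB157R iEV summit ran from just over the limit of the rule to more than 50 kb. It was 500 bp to 1 kb at 774 sites (40.6%), of which 668 were overlapped, and 10 kb or more at 19.2% of the sites. The members closest to the limit were near HOXA11 (0.500 kb) and HDHD2 (0.501 kb), both overlapped, with MB157 iEV folds of 3.75 and 4.99. Just outside were sites near TLE5 and STX11, both at 0.499 kb, with folds of 5.38 and 4.93. On the side of MB157R iN1-ICD, sites near IGFBP3 (499 bp) and RIMKLB (498 bp) were the last inside, and sites near NBPF1 and CC2D1B (500 bp each) the first outside.

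The RBPJ motif became more common with distance from the MB157R iEV summit. It was found within 100 bp of the MB157 iEV summit at 9.30% of the 774 sites at 500 bp to 1 kb, 13.0% of 401 at 1 to 2 kb, 21.4% of 215 at 2 to 5 kb, 21.5% of 149 at 5 to 10 kb, 23.8% of 282 at 10 to 50 kb and 27.4% (18.2 to 38.2) of 84 at 50 kb and over. From 2 kb upward the intervals overlap. The share at promoters fell over the same steps, from 68.5% to 7.14%, and its part in the result was not tested.

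**Figure D3:**
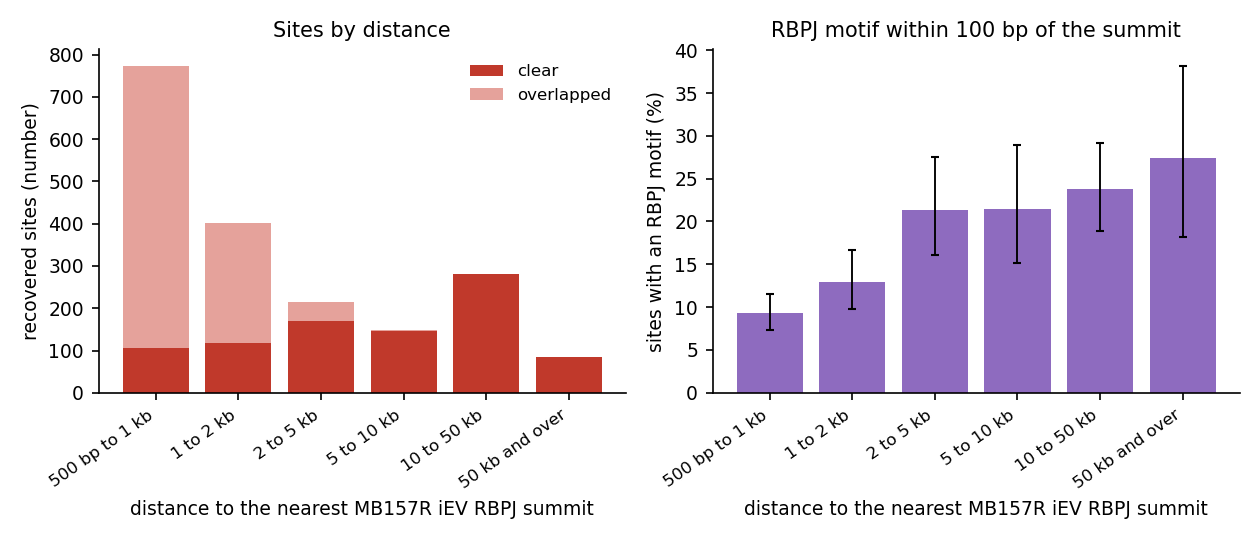
Left, the number of recovered sites (y axis) by distance from the MB157 iEV summit to the nearest MB157R iEV RBPJ summit (x axis), split into clear and overlapped sites. Right, the percent of these sites with an RBPJ motif within 100 bp of the summit, with exact binomial 95% intervals. Overlapped sites make up 668 of the 774 nearest sites, and the motif share rises from 9.30% to 27.4%.

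Clear recovered sites held the RBPJ motif more often than any other class. The 8-letter motif, searched on both strands, was present at 199 of 906 (22%, 95% interval 19.3 to 24.8), against 13.9% of all MB157 iEV sites. It was present at 13.7% of the clear lost sites (difference 8.25 points, 5.58 to 11.1) and 15.8% of the constant sites (difference 6.19 points, 3.50 to 9.09). The overlapped sites had it at 9.31% (7.58 to 11.3), 12.7 points below the clear ones (9.42 to 15.9) and within counting error of the sites near MB157R iEV only (9.44%). Pooled over all recovered sites, the share of 15.3% differed from the constant sites by -0.449 points (-2.17 to 1.39) and from the lost sites by 1.98 points (0.304 to 3.78), so that the pooled value lay between those of both groups. In flanks 1 kb to each side of the clear sites the motif share was 2.70%, and the reversed motif AAGNGTGN (A or G at the first N, C or T at the second) was at 3.09% of the clear sites. Only sites with a match within 100 bp have a motif distance. Among these, the nearest match lay at a median of 19 bp from the summit in the clear, 29 bp in the overlapped and 19 bp in the constant sites.

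**Figure D4:**
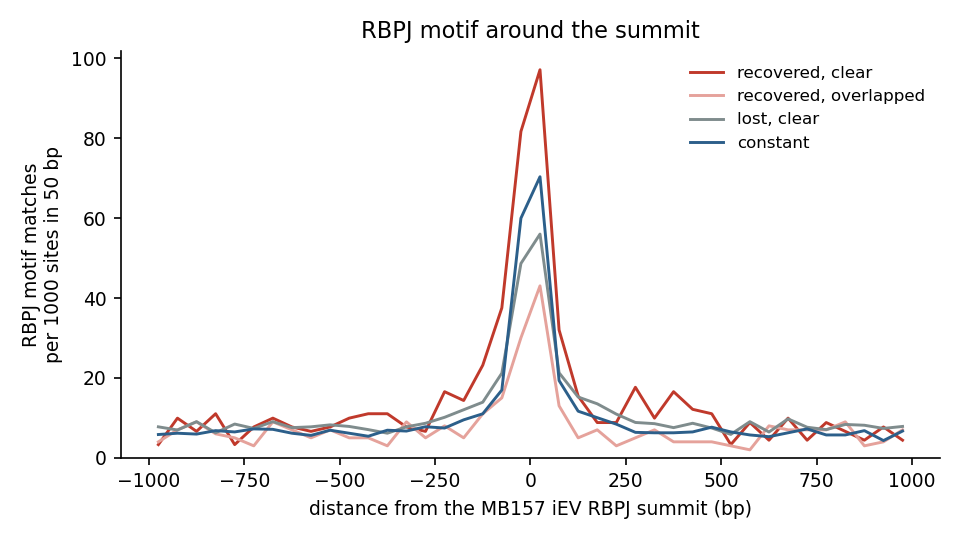
Number of RBPJ motif matches per 1000 sites in steps of 50 bp (y axis) by distance from the MB157 iEV summit (x axis, bp) for clear and overlapped recovered sites, lost sites clear of MB157R iEV peaks and constant sites. All 4 lines peak at the summit, with the highest step at 97.1 per 1000 in clear recovered, 70.3 in constant, 56.0 in lost and 43.0 in overlapped recovered sites.

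Part of this went with strength. Clear sites with the motif had a median fold of 6.99 in MB157 iEV and 5.10 in MB157R iN1-ICD, against 4.99 and 4.36 without it. Within steps of MB157 iEV fold, the motif share of clear recovered and clear lost sites was 10.9% and 8.66% below 4-fold, 16.9% and 12.1% from 4 to 6-fold, 29.3% and 20.7% from 6 to 10-fold, 35.3% and 31.8% from 10 to 20-fold and 45.9% and 41.4% at 20-fold and over. The recovered sites were higher in all 5 steps, but the intervals of both classes overlapped below 4-fold and from 10-fold upward. An average was also taken over 5 other bins of fold, each with a like number of MB157 iEV sites. There the difference was 5.48 points (2.74 to 8.22), a value computed after the data had been seen. Against constant sites the order depended on the fold. Constant sites had the motif at 5.56% below 4-fold, 7.94% from 4 to 6-fold and 19.2% from 6 to 10-fold, below the clear recovered sites. They had it at 39.1% from 10 to 20-fold and 65.6% at 20-fold and over, above the clear recovered sites. The intervals of these classes were apart only from 4 to 6-fold and from 6 to 10-fold. Sites with 2 or more matches made up 2.54% of the clear recovered sites, 0.647% of the clear lost sites and 0.627% of the constant sites.

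Motifs of some other factors also differed between the classes. AP-1 (TGANTCA, C or G at N) was found at 6.07% of clear recovered sites (4.61 to 7.83), 2.83% of clear lost sites (2.52 to 3.18) and 7.68% of constant sites. RUNX (TGTGGTT) was found at 8.06% (6.37 to 10.0), 4.97% and 4.13%, and TEAD (CATTCCA) at 7.84% (6.17 to 9.78), 4.86% and 3.43% of the same classes. For RUNX and TEAD the interval of the clear recovered sites lay above that of both other classes. KLF/SP (GGGCGGG) was found at 9.93% of clear recovered sites (8.06 to 12.1), above the 6.66% of clear lost sites (6.18 to 7.17) and below the 22.1% of constant sites. ETS (CCGGAAG) was found at 1.55%, 1.62% and 6.74% of these classes, with overlapping intervals for the clear recovered and clear lost sites. The SOX motif NNCAANG (A or T at each N) was at 20.0% of clear recovered and 17.9% of clear lost sites, with overlapping intervals, and at 17% in the flanks of the former. The HES/HEY E-box (CACGTG) was at 4.08% of clear recovered and 4.04% of clear lost sites. For it and for the NFY, FOX, CREB, GRHL and NRF1 motifs the intervals of these classes overlap. The shares of these other motifs were not compared within steps of fold. A match says only that these letters are in the window.

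Forced SOX2 in the parental line left most recovered sites called. An RBPJ summit of MB157 iSOX2 lay less than 500 bp from 65.5% of the recovered sites (63.3 to 67.6), against 68.5% of all MB157 iEV sites. That was 11.4 points above the lost sites (9.02 to 13.7) and 20.2 points below the constant sites (interval of the difference -22.5 to -18.0). Averaged over steps of fold, the difference from the lost sites was 5.96 points (3.74 to 8.18). Clear and overlapped sites had shares of 68.4% and 62.8%. In clear sites the share rose with fold from 46.6% below 4-fold to 97.1% from 10 to 20-fold and 37 of 37 at 20-fold and over. Below 4-fold the clear recovered sites were above the clear lost sites (46.6% against 34.8%), while from 4-fold upward the intervals of both overlap.

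**Figure D5:**
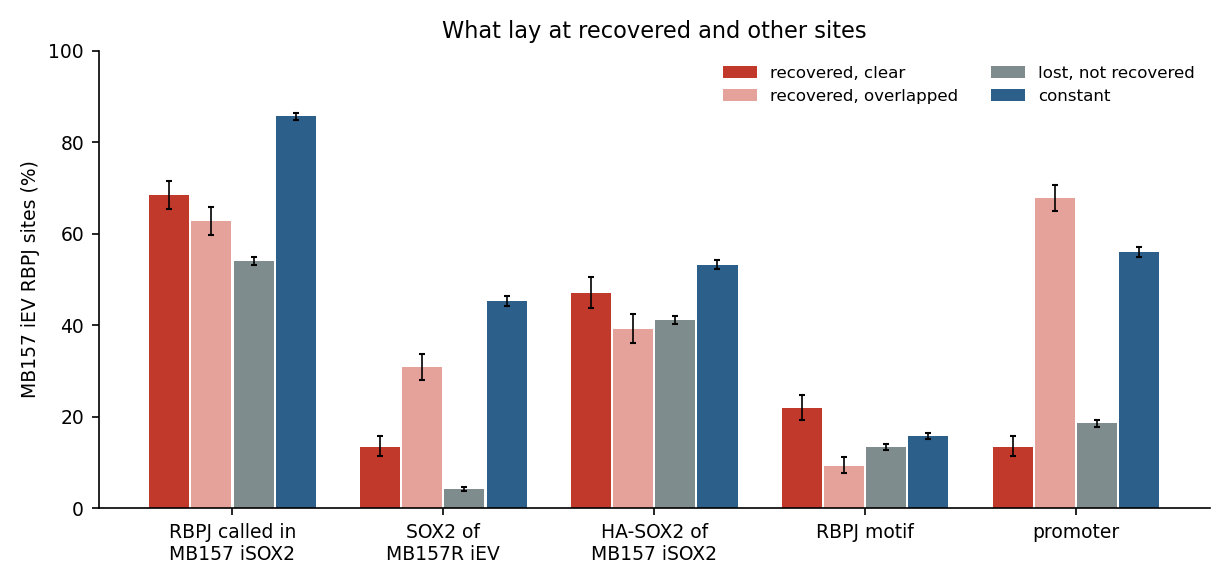
Percent of MB157 iEV RBPJ sites (y axis) with an RBPJ summit of MB157 iSOX2, a SOX2 summit of MB157R iEV or an HA-SOX2 summit of MB157 iSOX2 less than 500 bp away, an RBPJ motif within 100 bp, or a promoter within 1 kb (x axis), for clear and overlapped recovered, lost and constant sites, with exact binomial 95% intervals. Clear recovered sites have the highest motif share (22%) and a promoter share of 13.5%, and overlapped recovered sites have the highest promoter share (67.9%). The lost sites shown (18.6% at promoters) include those overlapped by an MB157R iEV peak. Without these their promoter share is 14.3%, within counting error of the clear recovered sites.

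SOX2 of the resistant cells, called with an antibody to the protein itself, sat at 430 recovered sites in MB157R iEV (22.6%, 20.7 to 24.5), the same share as over all MB157 iEV sites (22.6%). This was 18.4 points above the lost sites (4.18%, interval of the difference 16.5 to 20.4) and 22.7 points below the constant sites (45.3%, -24.8 to -20.6). Overlapped sites had SOX2 at 30.8% and clear sites at 13.5%. Clear lost sites had it at 2.56%, so clear recovered sites were 10.9 points higher (8.81 to 13.3). Overlapped lost sites had it at 20.2% (17.8 to 22.8) and sites near MB157R iEV only at 20.8%, both below the overlapped and above the clear recovered sites. With summits less than 100 bp apart in place of 500 bp, the difference was 10.9 points from the lost sites and -9.33 from the constant sites. After induction of NOTCH1, SOX2 was called at 6 of the recovered sites in MB157R iN1-ICD (0.315%, background 0.357%), from a list of 323 peaks. The HA control came from MB157 iEV, whose vector encoded no HA-tagged SOX2, and held 1 library and 77 peaks. Its summits lay near 6 recovered sites (0.315%, background 0.19%).

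Clear sites with and without SOX2 differed in sequence. The 122 with SOX2 had the RBPJ motif at 9.02% (4.59 to 15.6), against 24.0% (21.0 to 27.1) of the 784 without. They had the AP-1 motif at 13.1% (7.69 to 20.4) against 4.97% (3.56 to 6.74). For the SOX motif, at 27.9% (20.1 to 36.7) against 18.8% (16.1 to 21.7), the intervals overlap. Of the 37 clear sites at 20-fold and over, 0 had SOX2 in MB157R iEV (95% interval up to 9.49%), and 33 had HA-SOX2 in MB157 iSOX2 (89.2%, 74.6 to 97). Clear lost sites of that fold also had SOX2 at 0 of 87, and HA-SOX2 at 60 (69.0%, 58.1 to 78.5). The highest ranked recovered sites with SOX2 were all overlapped. They lay in RIPK4, a kinase of epidermal differentiation (chr21:41763139-41764176, 25.7-fold in MB157 iEV, 15.2-fold in MB157R iN1-ICD, SOX2 4.38-fold), and in MIDN (13.1-fold, 11.6-fold, SOX2 14.5-fold). The others were near NR4A3, an orphan nuclear receptor, ESRP2, an epithelial splicing regulator, and CHD9, a chromatin remodeler, with MB157 iEV folds of 10.5, 12 and 8.45.

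HA-SOX2 expressed in MB157 lay near 43.0% of recovered sites (40.8 to 45.2), against 45.8% of all MB157 iEV sites. The difference from the lost sites was 1.80 points (-0.594 to 4.21), and from the constant sites -10.2 points (-12.6 to -7.76). Clear sites had a share of 47.1% and overlapped sites of 39.2%. The direction against the lost sites depended on the processing, and averaged over steps of fold it was -1.58 points (-3.97 to 0.804).

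Recovered sites lay at several NOTCH target genes, and most of these were overlapped. Sites were assigned to the protein-coding gene with the closest TSS, up to 50 kb away, which left out 300 of the 1905. A recovered site was then found at 1424 of 19962 protein-coding genes (7.13%), a clear one at 616 (3.09%) and any MB157 iEV site at 10442 (52.3%). Of 25 canonical NOTCH targets, 10 had a recovered site and 4 a clear one (HEYL, NRARP, ID2 and ID3). Counted by sites, 12 of 110 RBPJ sites of this list were recovered (10.9%, 5.77 to 18.3), against 7.68% of the 20902 sites within 50 kb of any gene, a background that lies within the interval of the list. Most of its genes also kept a constant site (21 of 25).

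ID3, an inhibitor of bHLH factors, had its clear site 41.1 kb upstream of the TSS (chr1:23600376-23600942). RBPJ enrichment there was 8.83-fold in MB157 iEV, 7.14-fold in MB157R iN1-ICD and 5.6-fold in MB157 iSOX2, and the nearest MB157R iEV summit was 6.86 kb away. HEYL, a repressor of the HEY family, had a clear site 7.25 kb upstream (chr1:39646722-39647035) with 6.53-fold in MB157 iEV and 4.66-fold in MB157R iN1-ICD. The nearest RBPJ summit of MB157 iSOX2 was 7.09 kb away and that of MB157R iEV 13.7 kb. Both hold the motif printed above. NRARP, a feedback inhibitor of Notch, had a clear site 3.79 kb downstream of the TSS at 4.58-fold and 3.37-fold and an overlapped one 7.40 kb downstream at 6.03-fold and 4.66-fold.

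At HES1, NOTCH1, CCND1 and MYC the recovered sites were overlapped by MB157R iEV peaks. The HES1 site was 3.68 kb downstream of the TSS (chr3:194139077-194140077), with 5.07-fold enrichment in MB157 iEV and 6.75-fold in MB157R iN1-ICD. The NOTCH1 site was 6.27 kb upstream (chr9:136552108-136552875) with 7.48-fold and 4.78-fold, and an MB157R iEV peak of 6.34-fold had its summit 0.788 kb away. The CCND1 site in intron 3 had 5.34-fold and 4.13-fold, and the MYC site, at a TSS, 5.11-fold and 3.45-fold. At none of these 4 genes was RBPJ absent from the peak region in MB157R iEV.

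Among the members of the pathway itself, the share was that of the background. Of 42 receptors, ligands and other pathway members, 5 had a recovered site (among them NOTCH1, JAG1, MAML3 and PSEN2), which is 7 of 90 sites (7.78%, background 7.68%), and only PSEN2, a γ-secretase subunit, had a clear one. MAML3, a Mastermind coactivator of the RBPJ complex, had 3 recovered sites within 2.64 kb of a TSS, all overlapped by MB157R iEV peaks, and these were its only MB157 iEV sites. The strongest had 10.6-fold enrichment in MB157 iEV and 6.99-fold in MB157R iN1-ICD. The site 0.875 kb upstream of JAG1, a NOTCH ligand, had 8.37-fold and 5.08-fold.

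The study's NOTCH signature was built partly from genes that changed in these MB157R cells on NOTCH1 induction, so it is not independent of them. Of its 76 genes found, 26 had a recovered site and 16 a clear one. By sites, 33 of 245 were recovered (13.5%, 9.46 to 18.4), 20 of them clear, against 7.68% over all genes. Besides LURAP1L and ID3, KRT75, a keratin, had an overlapped site at 8.83-fold in MB157 iEV and 9.81-fold in MB157R iN1-ICD, ADAMTSL4 one at 8.24-fold and 10.1-fold, and KRT6A, a basal keratin, a clear one at 9.51-fold and 5.08-fold with SOX2 at 5.32-fold in MB157R iEV.

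Of 37 epithelial genes, 17 had a recovered site and 8 a clear one. By sites, 23 of 139 were recovered (16.5%, 10.8 to 23.8), against the same background of 7.68%. The gene EPCAM, an epithelial adhesion molecule, had a clear site 34.6 kb upstream (chr2:47309597-47311628) with 18.0-fold enrichment in MB157 iEV, 5.83-fold in MB157R iN1-ICD and 25.0-fold in MB157 iSOX2, and no MB157R iEV summit within 29.6 kb. CDH1, the gene of E-cadherin, had a clear site 7.62 kb downstream of its TSS in intron 2 (chr16:68744716-68745174) with 6.43-fold and 3.66-fold, and SOX2 of MB157R iEV 23 bp from it at 4.66-fold. ESRP2, LAMB3, a laminin chain, and ELF3, an epithelial ETS factor, had overlapped sites at 12-fold, 8.43-fold and 7.90-fold in MB157 iEV. The tight junction gene CLDN4 and the mucin MUC1 had overlapped sites at 5.67-fold and 3.91-fold. Of 30 EMT and mesenchymal genes, 3 had a recovered site (SNAI1, SPARC and MMP9, at 3.93-fold, 4.53-fold and 3.48-fold in MB157 iEV). By sites, 3 of 47 were recovered (6.38%, 1.34 to 17.5). This interval holds the background of 7.68% and overlaps that of the epithelial list.

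Of 21 Src family and dasatinib target kinases, 8 had a recovered site (38.1%, against 7.13% of all protein-coding genes). By sites, 9 of 40 were recovered (22.5%, 10.8 to 38.4, background 7.68%). Only 4 of the 40 were clear recovered sites (10.0%, background 3.15%). ABL2, SRC and CSK had clear ones. The clear ABL2 site in intron 3 had 4.22-fold in both lists, and overlapped sites lay at PDGFRA, EPHA2 and KIT, with 5.76-fold, 4.99-fold and 4.22-fold in MB157 iEV. Basal and luminal mammary genes had recovered sites at 5 of 25 genes each, stem cell genes at 4 of 25, AP-1 genes at 4 of 19, and YAP, TAZ and TEAD genes and targets at 6 of 28, against 7.13% of all protein-coding genes. These genes also had MB157 iEV sites more often than the 52.3% of all genes, at 72% to 94.7% of each list. By sites, 10.3%, 7.58%, 9.09%, 11.1% and 10.8% were recovered in the same order, and all 5 intervals hold the background of 7.68%. Among these, PROM1, a stem cell surface marker, had a clear site 39.1 kb upstream with 13.0-fold and 3.63-fold, and WWTR1, the gene of TAZ, a clear one in intron 3 with 5.61-fold and 12.1-fold. Among genes of other cell types, a recovered site was found at 1 of 20 liver genes (CYP2E1, 3.84-fold and 5.45-fold) and at 0 of 20 blood cell and 0 of 20 muscle genes. These lists had only 9, 7 and 15 MB157 iEV sites, too few to tell their shares from the background.

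Some genes gathered several recovered sites. There were 160 genes with 2 or more and 18 with 3 or more. BCOR, a corepressor, VGLL4, a cofactor of TEAD, and NAV1 had 4 each, of 16, 15 and 13 MB157 iEV sites. At BCOR and VGLL4 1 of the 4 was clear, and at NAV1 3 were. YPEL2 had 3, all clear and all in intron 2, with MB157 iEV folds of 8.73, 6.17 and 3.56 and MB157R iN1-ICD folds of 6.22, 6.74 and 4.96. The corepressor IRF2BP2, the mRNA decay factor ZFP36L1 and ALDH3B1 had 3 each, of which 1 was clear. A constant site lay within 50 kb of 59.0% of the clear sites (55.8 to 62.3), against 51.7% of the clear lost sites (difference 7.39 points, 4.01 to 10.7).

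The share of clear MB157 iEV sites that were recovered varied between chromosomes, from 4.49% on X and 5.00% on 18 to 11.4% on 11 and 16.4% on 15. The background of the lists varied between chromosomes too, and copy number and library coverage cannot be told apart in it. The recovered share was 10.5% (9.25 to 11.9) over the 5 chromosomes where the MB157 iEV background was below 0.85 times that of MB157R iEV, 8.19% (7.48 to 8.94) over the 12 between 0.85 and 1.2 times and 6.94% (6.09 to 7.86) over the 6 at 1.2 times or more. Over the 23 chromosomes Spearman's correlation of share and background ratio was -0.499. The part of this background in the recovery was not tested beyond the 12 chromosomes of like background, which hold 981 of the 1905 sites.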

How the data were processed

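Paired-end reads were trimmed and mapped to hg38 (BWA), and peaks were called by the authors with MACS2 at an FDR of 0.05 against inputs, after pooling the replicates of a group, as given in the study's methods and the submitters' processing notes. The 8 deposited lists give positions in bp, a ratio (the authors' fold of signal over local input background at the summit), −log10 values of p and of q as deposited, and other positions such as the summit offset. Fragments and background per summit were recovered from the deposited ratio and −log10 p. Only chromosomes 1 to 22 and X were used. Genes came from GENCODE 44. Shares have exact binomial and differences Newcombe 95% intervals, without p-values, because lists are pooled and sites are not replicates. Motifs were searched within 100 bp of summits on both strands.

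The recovered sites, the gene lists, the motifs and the alternatives were chosen with earlier results of these data known. Named sites were, by the lower of both folds, the 10 highest clear ones, the 5 highest clear ones at promoters, in introns and between genes, the 8 genes with most sites, up to 4 genes of each of 15 lists, sites with paired motifs, all sites of study key genes, the 5 highest with and without SOX2, and those at the 500 bp limit. Not every named site is described, and some of them are not reported here. Alternatives were distances of 100, 250 and 1000 bp, overlap of regions by 1 bp, −log10 q of at least 5, equal list lengths, no overlapping MB157R iEV peak, distal sites, like chromosomes, a promoter of 5 kb, a motif window of 50 bp and averages over 5 bins of fold. In a simulation, 20000 planted sites were all given their class. Scripts ran in Python 3.11.15 with scipy 1.17.1 and statsmodels 0.14.6 for intervals, pandas 2.3.3 and numpy 2.4.6 for tables and matplotlib 3.10.9 for plots.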

Additional observations from a re-analysis of the deposited data

How the results depend on the processing

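No paired analysis was possible because peaks were called on pooled libraries and the lists carry no replicate numbers, for which reason no library could be left out either. Of 109 alternative values of differences, 94 kept their direction with no interval newly across 0. The difference in MB157 iSOX2 RBPJ ran from 5.80 to 16.5 points against lost sites and from -25.0 to -16.2 against constant sites, and that in SOX2 of MB157R iEV from 10.3 to 21.6 and from -34.5 to -9.33, all with intervals clear of 0. The number of recovered sites was 933 by overlap of regions, 858 at a −log10 q of at least 5, 906 without overlapping MB157R iEV peaks, 1105 over 1 kb from a TSS and 981 on chromosomes of like background, of which the last 3 keep a subset of the 1905 sites by construction.

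For the motif against constant sites (-0.449 points), the difference was 3.72 at 1000 bp, 6.57 by overlap, 6.19 without overlapping peaks, 0.886 over 1 kb from a TSS, 0.018 on like chromosomes and 1.84 over bins of fold, but -10.5 at 100 bp, -3.65 at 250 bp and -2.71 with lists of equal length. Against lost sites it was 0.288 over bins of fold and 1.74 with the 7-letter core, both with intervals across 0. For promoters against lost sites it was -0.914 by overlap, -0.817 without overlapping peaks and -0.083 with bins added, and against constant sites -2.50 at 100 bp. For HA-SOX2 against lost sites it was 4.28 at 100 bp, 2.56 at 250 bp, 2.85 at 1000 bp, 5.22 by overlap, 4.80 with equal lists and 5.44 without overlapping peaks, but -2.97 at a −log10 q of at least 5 and -1.58 over bins, and against constant sites -2.17 at that −log10 q. The cause was not tested.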
